A study of Mus musculus with 9 samples.

Results

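The 10 genes described here encode the T cell receptor complex, its coreceptors and the first proteins that act with them: the invariant chains Cd3e, Cd3d, Cd3g and Cd247, the coreceptors Cd4, Cd8a and Cd8b1, the kinases Lck and Zap70, and the costimulatory receptor Cd28. They were chosen by symbol from the deposited expression table, in which each had a single entry, and are 10 of the 37801 entries used. All 10 passed the filter on low values, as did 16587 entries in all. RNA sequencing had been carried out on 9 mouse libraries in 3 groups of 3. The libraries labelled MHCII-KO came from Cre-positive mice with the Tyr-NrasQ61K transgene, the Tyr-NrasQ61K libraries from Cre-negative mice with the same transgene and wild-type MHC class II, and the wild-type (WT) libraries from mice without the transgene and with wild-type MHC class II. The tyrosinase promoter drives the activated Nras of this transgene in pigment cells. The strain is given as FVB/NJ (Cross) for both NrasQ61K groups and as FVB/NJ for the WT libraries, whereas the study's methods describe its wild-type controls as albino littermates without the transgene. The sources used here do not settle whether the groups shared 1 strain background. The sources used here give neither the Cre that was used, nor the cells meant to lose MHC class II, nor the age of the mice. The labels do not say that the libraries of a group came from separate mice. The p-values below therefore measure only the spread between these libraries, which may be technical. By identifiers in the labels, the libraries were grouped here into runs, A and D for WT and B and C for the NrasQ61K groups. What these identifier runs reflect is not known here. As WT shared no run with the other groups, group and run cannot be told apart in any comparison against WT.

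The alpha and beta chains of the T cell receptor bind peptide held by an MHC molecule, and the CD3 gamma, delta and epsilon chains and the zeta chain (CD247) carry the signal into the cell. CD4 binds MHC class II and CD8 binds MHC class I, and both bring the kinase LCK to the receptor, where it phosphorylates the CD3 and zeta tails and so allows ZAP70 to dock. CD28 binds CD80 and CD86 on antigen-presenting cells and supplies the costimulatory signal. In lymph nodes, helper T cells carry CD4, whereas cytotoxic T cells carry a dimer of CD8a and CD8b.

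In these libraries Cd4 had a higher mean in both NrasQ61K groups than in WT. Its transcript was higher relative to Cd8a in all 6 libraries of the NrasQ61K groups than in any WT library, with a Cd4 to Cd8a ratio of 4.95 to 6.50 in libraries labelled MHCII-KO, 5.16 to 11.2 in Tyr-NrasQ61K libraries and 1.73 to 2.89 in WT libraries. Cd3d, Cd3g and Cd247 had lower means in both NrasQ61K groups than in WT, while the mean of Cd3e was slightly higher. No single member passed the test across all genes in any comparison, and the 2 NrasQ61K groups did not separate from each other in any member.

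Before the members, the labels and libraries were checked. The source is labelled nevus melanocytes, whereas the study's account of its RNA sequencing gives lymph nodes as the tissue. The B cell receptor subunit Cd79b had 47.0 to 228 FPKM (fragments per kilobase of transcript, scaled to the fragments mapped in the library) over the 9 libraries. By contrast, 9 melanocyte genes together summed to 7.10 to 12.6 FPKM in libraries labelled MHCII-KO, 13.4 to 18 in Tyr-NrasQ61K libraries and 3.89 to 5.67 in WT libraries. Dct, a melanin synthesis enzyme that marks melanocytes, had 0.847, 2.10 and 3.25 FPKM in libraries labelled MHCII-KO and 5.81, 4.16 and 2.77 FPKM in Tyr-NrasQ61K libraries, against 0.0508, 0 and 0.0319 FPKM in WT libraries. It rose in Tyr-NrasQ61K over WT by 2.31 on the log2(FPKM + 1) scale (limma, adjusted p = 0.0431), and the difference of 1.5 for libraries labelled MHCII-KO did not pass (adjusted p = 0.201). H2-Ab1, the MHC class II beta chain gene, was present at 271, 108 and 165 FPKM in libraries labelled MHCII-KO, against 149, 276 and 207 FPKM in Tyr-NrasQ61K libraries. Its values overlapped between these groups, as did those of the class II genes H2-Aa and H2-Eb1, and the label MHCII-KO is therefore used here only as a name. Nras itself did not differ past the threshold from WT, with log2 differences of -0.39 for libraries labelled MHCII-KO and -0.40 for Tyr-NrasQ61K (limma, adjusted p = 0.515 and 0.522). Replicate 2 of each NrasQ61K group stood apart on the first principal component of all genes tested (32.1% of the variance), at 78.6 for the library labelled MHCII-KO and 102 for the Tyr-NrasQ61K library, against -74.1 to 21.8 for the other 7 libraries. These 2 libraries also had the lowest relative depth recovered, 0.869 and 0.753 of that of WT replicate 1, whereas the other libraries had 1.33 to 1.69 and Tyr-NrasQ61K replicate 3 could not be placed. On the second component (14.6% of the variance) Tyr-NrasQ61K replicate 3 also stood apart, at -100 against -12.9 to 35.0 for all other libraries. It had the highest Cd4 value (176 FPKM) and the highest Cd4 to Cd8a ratio (11.2), and was kept in the comparisons without replicate 2. Member differences from WT are given with and without the 2 replicate 2 libraries where that moved a value by more than 1.5 times. As these are bulk samples, fewer cells of a type and less RNA per cell cannot be told apart.

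**Figure D1:**
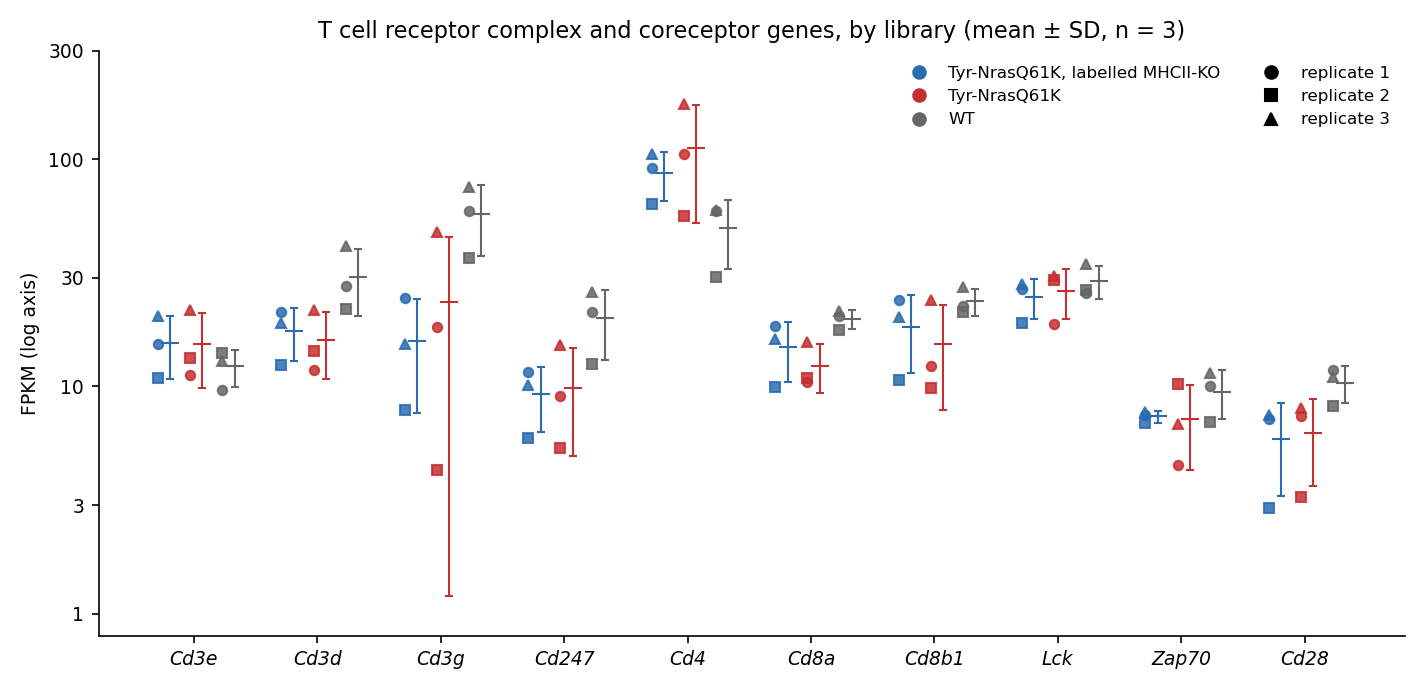
FPKM (log axis) of the 10 genes in each library, with libraries labelled MHCII-KO in blue, Tyr-NrasQ61K in red and WT in grey. Symbols give the replicate and bars the mean ± SD of 3 libraries. Cd4 is the highest gene in all 6 libraries of the NrasQ61K groups, and Cd3g in all 3 WT libraries.

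The CD3 chain genes lie together on chromosome 9 (GRCm38, GENCODE M21). Cd3g occupies chr9:44969572-44980431 on the minus strand and Cd3d chr9:44981786-44987339 on the plus strand, so that their starts are 1355 bases apart and face away from each other. Cd3e lies on the other side of Cd3d and occupies chr9:44998740-45009627 on the minus strand. The 300 bases around the start of each (250 before and 50 after, RefSeq, build GRCm38.p6) are shown because these neighbours differed in their values. The windows are chr9:44980382-44980681 on the minus strand for Cd3g, chr9:44981536-44981835 on the plus strand for Cd3d and chr9:45009562-45009861 on the minus strand for Cd3e. Each is written 5′ to 3′ along its gene. Capitals mark AGGAAG, a core sequence bound by ETS factors such as ETS1, or its reverse complement.
Cd3g: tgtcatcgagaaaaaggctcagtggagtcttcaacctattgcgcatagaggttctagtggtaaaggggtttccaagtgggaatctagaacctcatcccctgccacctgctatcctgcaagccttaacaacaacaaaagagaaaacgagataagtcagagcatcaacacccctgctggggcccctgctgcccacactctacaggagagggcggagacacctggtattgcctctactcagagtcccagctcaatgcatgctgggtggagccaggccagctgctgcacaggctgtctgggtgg
Cd3d: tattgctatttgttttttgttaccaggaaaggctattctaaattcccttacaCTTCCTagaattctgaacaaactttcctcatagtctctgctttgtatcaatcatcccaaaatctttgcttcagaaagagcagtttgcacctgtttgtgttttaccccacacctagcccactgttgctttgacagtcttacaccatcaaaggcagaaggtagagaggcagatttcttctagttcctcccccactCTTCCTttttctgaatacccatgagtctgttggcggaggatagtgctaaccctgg
Cd3e: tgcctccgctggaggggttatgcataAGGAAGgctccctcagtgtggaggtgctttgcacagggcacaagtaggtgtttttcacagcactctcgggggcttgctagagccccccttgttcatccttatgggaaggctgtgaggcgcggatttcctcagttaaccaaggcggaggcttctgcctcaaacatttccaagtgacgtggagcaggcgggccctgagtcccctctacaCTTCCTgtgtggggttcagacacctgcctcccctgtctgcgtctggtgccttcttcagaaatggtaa
Cd3d and Cd3e each held 2 AGGAAG matches and the Cd3g window held none. Of the 32851 windows of this length in the RefSeq table, 35.4% held the sequence on either strand. The RUNX core TGTGGT, present in 16.8% of all windows, had no match in these 3 windows on either strand. The same was true of the start site element TATAAA, present in 13.6%. The GC content was 54.0% for Cd3g, 42.3% for Cd3d and 56.7% for Cd3e. RefSeq windows were matched for 7 of the 10 members, and Cd4, Cd8b1 and Cd28 had no entry.

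Cd3g, the gamma chain gene, varied more, relative to its mean, than any other member within the NrasQ61K groups. It had 24.5, 7.91 and 15.3 FPKM in libraries labelled MHCII-KO (replicates 1, 2 and 3), 18.2, 4.29 and 47.8 FPKM in Tyr-NrasQ61K libraries, and 59.1, 36.6 and 75.6 FPKM in WT libraries. All 3 libraries labelled MHCII-KO lay below all WT libraries, whereas Tyr-NrasQ61K replicate 3 lay inside the WT range. The log2 fold change against WT was -1.85 (95% interval -3.59 to -0.11, adjusted p = 0.329) for libraries labelled MHCII-KO and -1.71 (-3.45 to 0.03, adjusted p = 0.330) for Tyr-NrasQ61K, by limma with Benjamini-Hochberg adjustment over the 16587 genes. The size of this difference rested in part on the replicate 2 libraries, since without both of them it was -1.45 for libraries labelled MHCII-KO and -0.87 for Tyr-NrasQ61K.

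Cd3d, the delta chain gene, had 21.2, 12.4 and 19.0 FPKM in libraries labelled MHCII-KO, 11.9, 14.3 and 21.8 FPKM in Tyr-NrasQ61K libraries, and 27.7, 22.0 and 41.3 FPKM in WT libraries. Every library of both NrasQ61K groups was below the lowest WT library, the nearest by little. The log2 fold change against WT was -0.74 (SE 0.33, adjusted p = 0.329) for libraries labelled MHCII-KO and -0.88 (SE 0.33, adjusted p = 0.316) for Tyr-NrasQ61K, neither past the threshold of 0.05.

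Cd247, the zeta chain gene on chromosome 1, also had lower means in both NrasQ61K groups than in WT. Its values were 11.5, 5.95 and 10.2 FPKM in libraries labelled MHCII-KO, 9.12, 5.35 and 15.1 FPKM in Tyr-NrasQ61K libraries, and 21.2, 12.6 and 26 FPKM in WT libraries. The libraries labelled MHCII-KO did not overlap with WT, while Tyr-NrasQ61K replicate 3 exceeded WT replicate 2. The log2 difference against WT was -1.02 (SE 0.41, adjusted p = 0.329) for libraries labelled MHCII-KO and -0.99 (SE 0.41, adjusted p = 0.323) for Tyr-NrasQ61K. Without both replicate 2 libraries it was -0.76 for libraries labelled MHCII-KO and -0.65 for Tyr-NrasQ61K. NK cells also express Cd247 and Zap70. Cd247 shares 3007 exonic bases with Pou2f1 on the opposite strand, which had 6.70 to 19.9 FPKM, and since no source states whether strand was used in counting, reads of this stretch cannot be told apart.

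Cd3e, the epsilon chain gene, had means above WT. It had 15.4, 10.9 and 20.4 FPKM in libraries labelled MHCII-KO, 11.2, 13.3 and 21.7 FPKM in Tyr-NrasQ61K libraries, and 9.68, 14.1 and 12.9 FPKM in WT libraries. All 3 groups overlapped. The log2 difference against WT was 0.30 (interval -0.42 to 1.02) for libraries labelled MHCII-KO and 0.27 (-0.44 to 0.99) for Tyr-NrasQ61K (limma, adjusted p = 0.599 and 0.637). It was 0.52 for libraries labelled MHCII-KO and 0.35 for Tyr-NrasQ61K without both replicate 2 libraries. Cd3e shares 135 exonic bases with an antisense gene, Gm48719.

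The make-up of the 4 chains within a library does not depend on how libraries are scaled. Cd3e took 21.3%, 29.3% and 31.4% of their summed FPKM in libraries labelled MHCII-KO, 22.3%, 35.8% and 20.4% in Tyr-NrasQ61K libraries, and 8.23%, 16.5% and 8.30% in WT libraries. All 6 libraries of the NrasQ61K groups were above the highest WT library. Cd3g took 33.7%, 21.3% and 23.6% in libraries labelled MHCII-KO and 36.1%, 11.5% and 44.9% in Tyr-NrasQ61K libraries, against 50.2%, 42.9% and 48.5% in WT libraries. Here Tyr-NrasQ61K replicate 3 lay inside the WT range. The share of Cd247 was between 14.2% and 18.1% in all 9 libraries. As ratios, Cd3g to Cd3e was 0.729 to 1.59 in libraries labelled MHCII-KO, 0.322 to 2.20 in Tyr-NrasQ61K libraries and 2.60 to 6.11 in WT libraries. Cd3d to Cd3e was 0.931 to 1.37 in libraries labelled MHCII-KO, 1.0 to 1.07 in Tyr-NrasQ61K libraries and 1.56 to 3.19 in WT libraries. In both ratios the groups with the transgene lay wholly below WT. The same held for the ratios to Cd3e of Cd247, Cd8a and the receptor beta chain genes Trbc1 and Trbc2. Those of Cd8b1, Lck, Zap70, Cd28, Trac and Cd4 to Cd3e overlapped with WT. All of these ratios share the Cd3e values, so that they are not independent of each other. They were picked after their values were seen and were given no test.

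**Figure D2:**
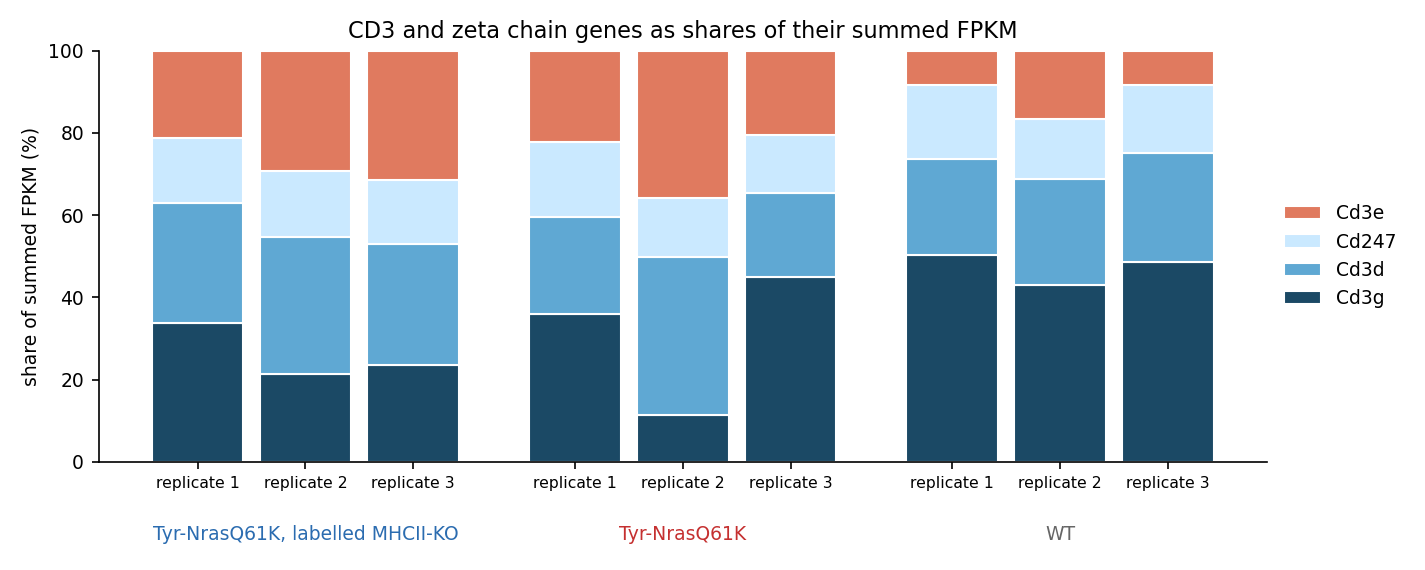
Share of each chain gene in the summed FPKM of Cd3g, Cd3d, Cd247 and Cd3e, in percent, for each of the 9 libraries. The Cd3e share is 20.4% to 35.8% in the 6 libraries of the NrasQ61K groups and 8.23% to 16.5% in the 3 WT libraries.

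Among the coreceptors, the means of Cd4 and of the CD8 chains lay on opposite sides of WT. Cd4 (chr6:124864692-124888221, minus strand) had 91.4, 63.8 and 105 FPKM in libraries labelled MHCII-KO, 106, 56.0 and 176 FPKM in Tyr-NrasQ61K libraries, and 59.0, 30.4 and 59.7 FPKM in WT libraries. All 3 libraries labelled MHCII-KO were above all WT libraries, whereas Tyr-NrasQ61K replicate 2 lay inside the WT range. The log2 fold change against WT was 0.83 (SE 0.47, adjusted p = 0.370) for libraries labelled MHCII-KO and 1.08 (SE 0.47, adjusted p = 0.328) for Tyr-NrasQ61K. Without both replicate 2 libraries these were 1.03 and 1.5, and neither passed.

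Cd8a (chr6:71373427-71379173, plus strand) had 18.5, 9.91 and 16.2 FPKM in libraries labelled MHCII-KO, 10.4, 10.8 and 15.7 FPKM in Tyr-NrasQ61K libraries, and 20.4, 17.6 and 21.4 FPKM in WT libraries. The Tyr-NrasQ61K libraries were all below WT, with a log2 fold change of -0.66 (SE 0.27, adjusted p = 0.323), while library 1 of those labelled MHCII-KO lay inside the WT range, with -0.43 (SE 0.27, adjusted p = 0.401) for that group. Cd8b1 (chr6:71322788-71337494, plus strand), which encodes the other CD8 chain and lies near Cd8a, had 24.1, 10.7 and 20.1 FPKM in libraries labelled MHCII-KO, 12.3, 9.88 and 24.0 FPKM in Tyr-NrasQ61K libraries, and 22.5, 21.3 and 27.4 FPKM in WT libraries. Both NrasQ61K groups overlapped with WT, with log2 differences of -0.42 for libraries labelled MHCII-KO and -0.68 for Tyr-NrasQ61K (limma, adjusted p = 0.543 and 0.378). For libraries labelled MHCII-KO, leaving out both replicate 2 libraries brought the differences to -0.18 for Cd8a and -0.09 for Cd8b1. For Tyr-NrasQ61K it brought that of Cd8b1 to -0.43.

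The Cd4 to Cd8a ratio, which sets a helper against a cytotoxic T cell coreceptor transcript, was taken within each library. The part of other cells in either transcript was not tested. It was 4.95, 6.43 and 6.50 in libraries labelled MHCII-KO, 10.1, 5.16 and 11.2 in Tyr-NrasQ61K libraries, and 2.89, 1.73 and 2.79 in WT libraries. The ratio was higher in 6 of 6 libraries of the NrasQ61K groups than in any WT library. The share of all gene pairs that separate in this way was not computed. Against WT the geometric mean was 2.46-fold higher in libraries labelled MHCII-KO and 3.47-fold higher in Tyr-NrasQ61K libraries (exact two-sided permutation test, p = 0.1 each, the smallest p that 3 against 3 libraries allow). For both NrasQ61K groups together it was 2.92-fold higher than WT (exact permutation p = 0.0238, the smallest possible with 6 against 3, and 0.190 after Benjamini-Hochberg adjustment over the 8 ratio tests), so that it did not pass once adjusted. Libraries labelled MHCII-KO had 0.708 of the Tyr-NrasQ61K ratio (exact permutation p = 0.3), and their values overlapped. Without both replicate 2 libraries the difference from WT was 1.69 on the log2 scale against 1.55 with them (exact permutation p = 0.0571, the smallest that 4 against 3 allow).

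The Cd8a to Cd8b1 ratio compares 2 chains of the same dimer. CD8a+ dendritic cells carry Cd8a without Cd8b1. The ratio was 0.765, 0.925 and 0.805 in libraries labelled MHCII-KO, 0.847, 1.10 and 0.657 in Tyr-NrasQ61K libraries, and 0.904, 0.828 and 0.781 in WT libraries. All groups overlapped. The log2 difference was -0.01 for libraries labelled MHCII-KO and 0.02 for Tyr-NrasQ61K against WT (exact permutation p = 0.9 each). Of the other Cd4 ratios, Cd4 to Cd247 was 7.92 to 10.7 in libraries labelled MHCII-KO, 10.5 to 11.6 in Tyr-NrasQ61K libraries and 2.30 to 2.78 in WT libraries. Cd4 was also higher in all 6 libraries than in WT relative to Cd3d, Cd3g, Cd8b1 and Cd28, whereas its ratios to Cd3e, Lck and Zap70 overlapped with WT. Outside the members, it was higher in all 6 relative to the receptor alpha chain gene Trac, the macrophage marker Csf1r and the B cell gene Cd79b. The last 2 had log2 differences of -0.86 and -0.94 for both NrasQ61K groups combined against WT. Other markers of these cells differed the other way, such as Mertk (0.65) and Ebf1 (0.35). Of the markers tested, 4 of 8 for macrophages and 4 of 12 for B cells lay above 0. Ratios of Cd4 to those other markers were not taken. The further ratios given here all share the Cd4 values and were described and not tested.

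**Figure D3:**
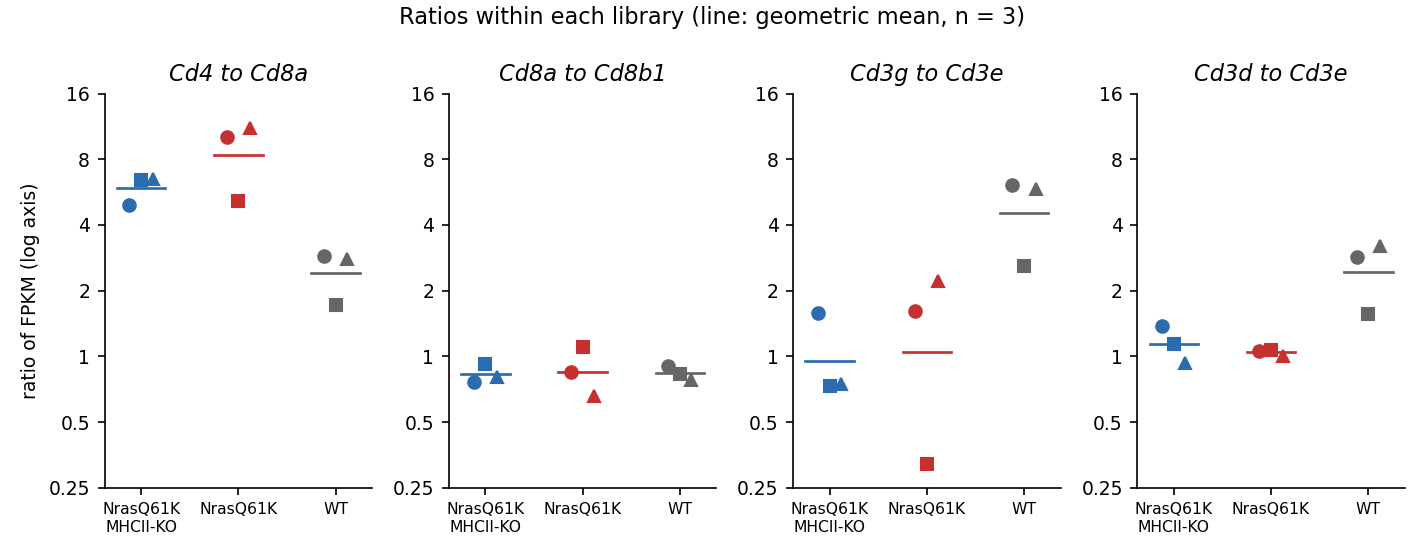
Ratios of FPKM within each library (log axis) for Cd4 to Cd8a, Cd8a to Cd8b1, Cd3g to Cd3e and Cd3d to Cd3e, by group, with replicates 1, 2 and 3 as circle, square and triangle and the geometric mean of 3 libraries as a line. All 6 libraries of the NrasQ61K groups lie above WT for Cd4 to Cd8a (4.95 to 11.2 against 1.73 to 2.89) and below WT for Cd3g to Cd3e and Cd3d to Cd3e, and all groups overlap for Cd8a to Cd8b1.

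For both kinases, all groups overlapped. Lck, the kinase that starts the signal, had 26.8, 19.1 and 28.2 FPKM in libraries labelled MHCII-KO, 18.8, 29.5 and 30.7 FPKM in Tyr-NrasQ61K libraries, and 25.9, 26.5 and 34.5 FPKM in WT libraries. Its log2 difference from WT was -0.23 (interval -0.86 to 0.39) for libraries labelled MHCII-KO and -0.15 (-0.78 to 0.47) for Tyr-NrasQ61K, and its sign turned with the scaling of the libraries. Leaving out both replicate 2 libraries gave -0.06 for libraries labelled MHCII-KO and -0.25 for Tyr-NrasQ61K. Zap70, the kinase that docks on the phosphorylated chains, had 7.52, 6.87 and 7.75 FPKM in libraries labelled MHCII-KO, 4.5, 10.3 and 6.84 FPKM in Tyr-NrasQ61K libraries, and 9.998, 6.97 and 11.5 FPKM in WT libraries. Its log2 differences from WT were -0.30 (interval -0.95 to 0.35) for libraries labelled MHCII-KO and -0.39 (-1.04 to 0.26) for Tyr-NrasQ61K. Without both replicate 2 libraries the difference was -0.26 for libraries labelled MHCII-KO and -0.65 for Tyr-NrasQ61K.

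Cd28 had 7.21, 2.91 and 7.45 FPKM in libraries labelled MHCII-KO, 7.44, 3.26 and 8.03 FPKM in Tyr-NrasQ61K libraries, and 11.8, 8.24 and 11.0 FPKM in WT libraries. All 6 libraries of the NrasQ61K groups were below the lowest WT library, and replicate 2 was the lowest in each group. The log2 difference from WT was -0.80 (SE 0.39, adjusted p = 0.338) for libraries labelled MHCII-KO and -0.71 (SE 0.39, adjusted p = 0.366) for Tyr-NrasQ61K. Without both replicate 2 libraries these differences shrank to -0.43 and -0.37.

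The order of the members by mean FPKM differed between WT and the other groups. In libraries labelled MHCII-KO, Cd4 averaged 86.8 ± 21.1 FPKM and stood apart from the next gene, Lck, at 24.7 ± 4.90, and in Tyr-NrasQ61K libraries Cd4 averaged 112 ± 60.2 and Lck 26.3 ± 6.57 (SD, n = 3 each). In WT libraries Cd3g came first at 57.1 ± 19.6 FPKM, with Cd4 at 49.7 ± 16.7 and Cd3d at 30.3 ± 9.94. Cd4 was the highest member in each of the 6 libraries of the NrasQ61K groups, and Cd3g in each of the 3 WT libraries. After Cd4, the order in libraries labelled MHCII-KO was Lck, Cd8b1, Cd3d, Cd3g, Cd3e, Cd8a, Cd247, Zap70 and Cd28. In Tyr-NrasQ61K libraries it was Lck, Cd3g, Cd3d, Cd3e, Cd8b1, Cd8a, Cd247, Zap70 and Cd28. In WT libraries, Cd3d was followed by Lck, Cd8b1, Cd247, Cd8a, Cd3e, Cd28 and Zap70, with Cd8a and Cd3e the only neighbours whose ranges did not overlap. All other neighbours in each order overlapped, apart from Cd4 and Lck in the NrasQ61K groups.

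Over the whole set, 0 of 10 members passed the limma test in any comparison. In libraries labelled MHCII-KO against WT, the test called 24 genes (0.145% of 16587), and 2 members had an unadjusted p under 0.05, Cd3g and Cd247, both lower, where 11.5% of all genes were lower and 3.57% higher at that level. In Tyr-NrasQ61K against WT it called 39 genes (0.235%), and 4 members had such a p, Cd4 higher and Cd3d, Cd247 and Cd8a lower, where 8.43% of all genes were lower and 6.79% higher. With both NrasQ61K groups combined against WT it called 66 genes (0.398%), and 5 members were below 0.05 unadjusted, Cd4 higher and Cd3d, Cd3g, Cd247 and Cd8a lower, where 15.2% of all genes were lower and 6.52% higher. Between libraries labelled MHCII-KO and Tyr-NrasQ61K it called 8 genes (0.0482%) and no member was below 0.05, against 1.52% of genes. The comparisons against WT share their WT libraries, and the last also its NrasQ61K libraries, so that they are not independent of each other.

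By overlap of libraries, Cd3d, Cd3g, Cd247 and Cd28 were lower in all 3 libraries labelled MHCII-KO than in all 3 WT libraries, as were 23.4% of all genes, and Cd4 was higher, as were 7.97%. In Tyr-NrasQ61K against WT, Cd3d, Cd8a and Cd28 were lower in every library, as were 10.5% of all genes, and none was higher in every library, as were 8.18%. With both NrasQ61K groups together, Cd3d and Cd28 were lower in all 6 libraries, as were 8.44% of genes, and none was higher in all 6, as were 4.52%. No member separated libraries labelled MHCII-KO from Tyr-NrasQ61K libraries, as did 3.8% of genes. The median log2 fold change of the members against WT was -0.42 for libraries labelled MHCII-KO and -0.67 for Tyr-NrasQ61K, beside -0.22 and -0.12 for all genes tested. Between libraries labelled MHCII-KO and Tyr-NrasQ61K the members lay between -0.25 (Cd4) and 0.26 (Cd8b1), with intervals of -1.32 to 0.82 for Cd4 and -0.62 to 1.14 for Cd8b1, and every adjusted p was 0.9999. The interval of Cd3g, -1.88 to 1.60, was the widest of the 10. When both replicate 2 libraries were left out, the members lay between -0.58 (Cd3g) and 0.40 (Cd8a). A fit that gave less weight to libraries far from their group called many more genes. With such weights, from 0.197 for Tyr-NrasQ61K replicate 2 to 5.22 for replicate 3 of those labelled MHCII-KO, 6 members passed for libraries labelled MHCII-KO against WT and 7 for Tyr-NrasQ61K against WT, where 7407 and 5076 of all genes passed.

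**Figure D4:**
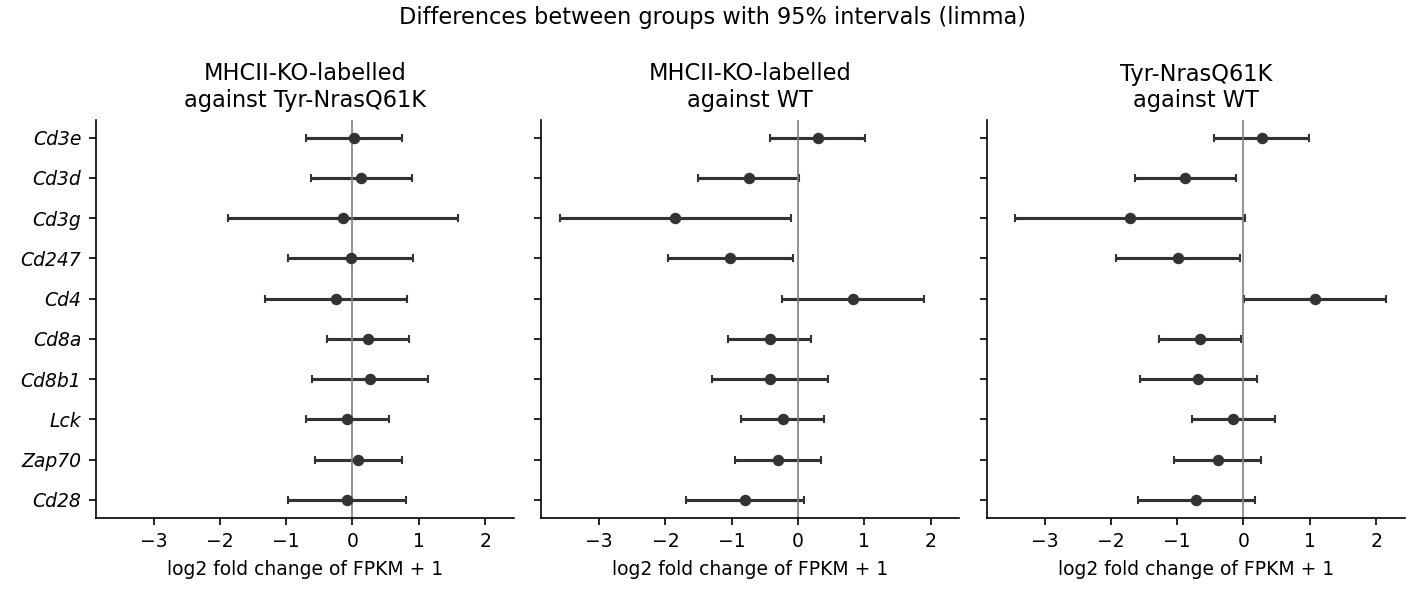
Difference of each member on the log2(FPKM + 1) scale (points) with its 95% interval (bars, limma) for libraries labelled MHCII-KO against Tyr-NrasQ61K, libraries labelled MHCII-KO against WT, and Tyr-NrasQ61K against WT. Against WT, Cd4 and Cd3e lie above 0 and the other 8 genes below, and between the NrasQ61K groups all intervals include 0.

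Other genes of the receptor pathway were described from lists that had been chosen with earlier results of these data known. No gene of the 5 pathway lists passed limma's test in any comparison. Of 8 genes for constant regions of the receptor chains, 3 were in the table. The beta chain genes Trbc1 and Trbc2 had log2 differences of -0.77 and -0.83 for both NrasQ61K groups combined against WT (unadjusted p of 0.0384 and 0.0246, limma adjusted p = 0.220 and 0.207), whereas the alpha chain gene Trac differed by -0.10. Trac had 34.4, 17.9 and 34.0 FPKM in libraries labelled MHCII-KO, 27.6, 25.4 and 46.0 FPKM in Tyr-NrasQ61K libraries, and 30.2, 26.4 and 40.7 FPKM in WT libraries, and all groups overlapped. The ratio of Trac to Trbc1 was 0.524 to 0.652 in libraries labelled MHCII-KO, 0.612 to 0.669 in Tyr-NrasQ61K libraries and 0.305 to 0.435 in WT libraries. WT did not overlap with the other groups, but this ratio was given no test. The share of all gene pairs that separate in this way was not computed.

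Of 13 other T cell surface proteins, 13 lay below 0 for both NrasQ61K groups against WT, with a median of -0.80. Most of all genes tested also lay below 0, with a median of -0.16. Of the 13, 7 had an unadjusted p under 0.05 by limma, all lower, where 15.2% of all genes were lower at that level. Among these were the costimulatory receptor Icos (-0.88, limma adjusted p = 0.158), the adhesion receptor Cd226 (-1.22, adjusted p = 0.194), the homing receptor Ccr7 (-0.80, adjusted p = 0.195) and Cd2 (-0.94, adjusted p = 0.202). In contrast, 16 genes of distal signalling had a median of -0.11, close to that of all genes (-0.16), with 1 gene at an unadjusted p under 0.05, the adaptor Bcl10 (-0.55), a smaller share than over all genes. For 18 genes of proximal signalling the median was -0.24, with 3 such genes, all lower: the receptor-associated adaptor Trat1 (-1.07), the phosphatase Ptprc (-0.90) and the adaptor Sla2 (-0.53). These 3 of 18 are near the share over all genes. The 13 transcription factors had a median of 0.03, and Runx3, which acts in cytotoxic T cells, was the only gene of that list with an unadjusted p under 0.05 (0.56 higher on the log2 scale, limma adjusted p = 0.207).

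**Figure D5:**
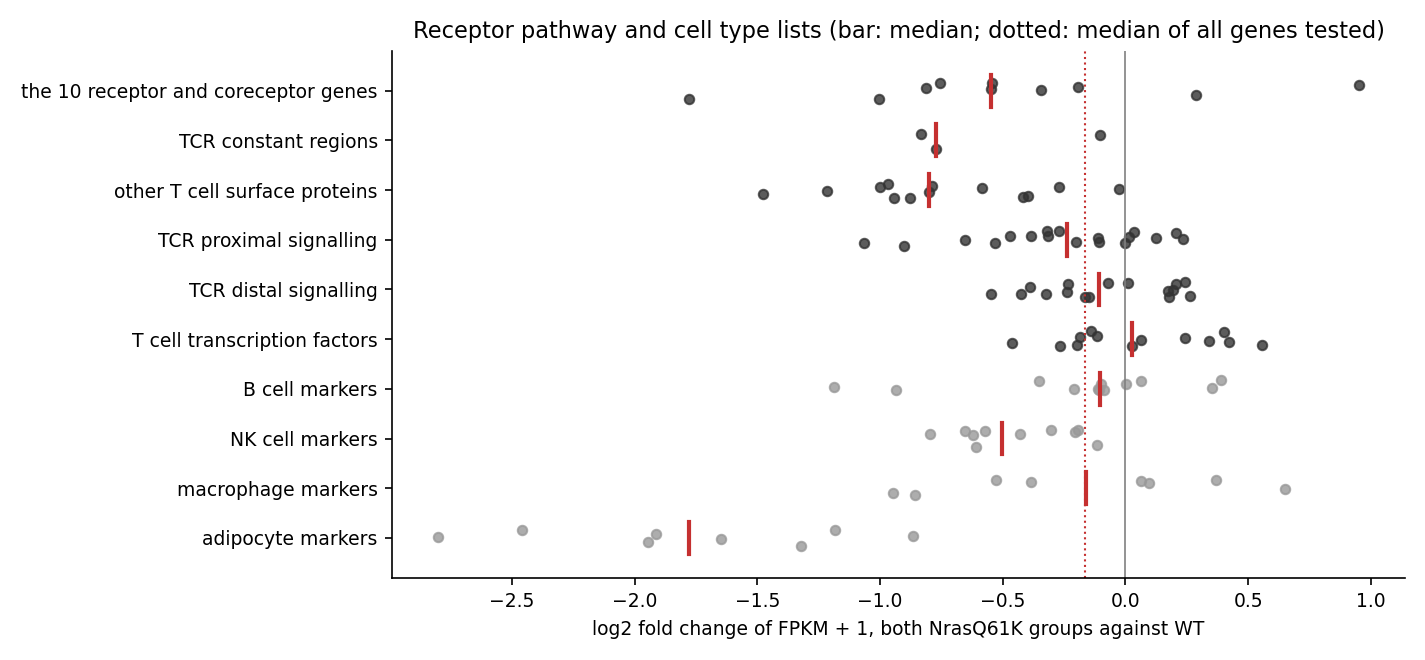
Log2 fold change of FPKM + 1 in both NrasQ61K groups against WT for every tested gene (points) of each list, with the list's median as a red bar, the median of all genes tested as a dotted line (-0.16) and 0 as a solid line. Medians are -0.55 for the 10 members, -0.80 for other T cell surface proteins, 0.03 for T cell transcription factors and -1.78 for adipocyte markers.

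Markers of other cell types were summed in each library. The 8 adipocyte markers summed to 64.4 to 173 FPKM in libraries labelled MHCII-KO, 42.7 to 187 in Tyr-NrasQ61K libraries and 277 to 511 in WT libraries, and Lep and Plin1 fell in both NrasQ61K groups combined against WT (by 2.80 and 1.95 on the log2 scale, limma adjusted p = 0.0282 and 0.0445). For 10 genes of lymph node stroma and vessels the sums were 251 to 520 FPKM in libraries labelled MHCII-KO, 223 to 789 in Tyr-NrasQ61K libraries and 746 to 1769 in WT libraries. The vessel mucin gene Glycam1 made up much of these sums, with 69.3 to 272 FPKM in libraries labelled MHCII-KO, 50.7 to 524 in Tyr-NrasQ61K libraries and 502 to 1282 in WT libraries. The collagen gene Col1a1, named after its values were seen, was the only gene of this list with a log2 difference above 0 for both NrasQ61K groups combined against WT (1.23, limma adjusted p = 0.205). B cell markers (12 genes) summed to 465 to 638 FPKM in libraries labelled MHCII-KO, 444 to 836 in Tyr-NrasQ61K libraries and 641 to 796 in WT libraries. NK cell markers (10 genes) summed to 39.0 to 58.4 FPKM in libraries labelled MHCII-KO, 34.0 to 60.8 in Tyr-NrasQ61K libraries and 53.3 to 84.8 in WT libraries. For CD8a+ dendritic cells and plasmacytoid cells (9 of 10 genes in the table) the sums were 97.2 to 136 FPKM in libraries labelled MHCII-KO, 75.0 to 177 in Tyr-NrasQ61K libraries and 133 to 210 in WT libraries. Of these sums, Ly6d alone gave 47.5 to 73.0, 27.4 to 95.7 and 67.2 to 112 FPKM, in the same order of groups. Macrophage markers (9 of 10) summed to 836 to 1457 FPKM in libraries labelled MHCII-KO, 669 to 1579 in Tyr-NrasQ61K libraries and 679 to 1482 in WT libraries. Lyz2 made up much of these sums, with 598 to 1120, 468 to 1269 and 502 to 1076 FPKM, in the same order of groups. Of the 8 macrophage markers tested, 4 lay above 0 and 4 below for both NrasQ61K groups combined against WT. No gene of the stroma, B cell, NK cell, dendritic cell or macrophage lists passed the test in any comparison. The part of these cells in the values of Cd8a, Cd247, Cd4 and the other members was not tested.

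The genes whose pattern over the 9 libraries was most like the mean pattern of the 10 members were Pdk1 (a pyruvate dehydrogenase kinase), Rps15 (a ribosomal protein), Klhl5, Syncrip (an RNA-binding protein) and Tatdn1, with root mean square distances of 0.0620, 0.0775, 0.0826, 0.0935 and 0.102 on the centred log2(FPKM + 1) scale, out of 15794 candidates. Of the members, Cd8b1 (0.158) and Cd8a (0.166) lay nearest to their common mean, whereas Cd4 (0.722) and Cd3g (0.850) lay farthest from it. The mean pattern was highest in WT replicate 3 (0.59) and lowest in replicate 2 of the libraries labelled MHCII-KO (-0.64) and of the Tyr-NrasQ61K libraries (-0.57). The same 2 libraries were those that stood apart on the first principal component and had the lowest relative depth recovered.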

How the data were processed

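RNA-seq was measured in 9 mouse libraries on an Illumina Genome Analyzer IIx. The deposited FPKM values were made by the authors from reads aligned to mm10, and the submitters' processing notes name TopHat, Cufflinks and Cuffdiff. No source used here gives their versions, the annotation, the read filters or the use of strand. The number of reads per library is unknown, and the depth is known only relative to WT replicate 1, from low FPKM. Other deposited tables hold the authors' own fold changes and p-values and were not used.

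Of 37819 entries, 18 with several values per library were left out. Genes with at least 1 FPKM in at least 3 libraries were tested as log2(FPKM + 1), a scale that understates changes of low genes, by limma 3.58.1 in R 4.3.3 with 3 group means, a mean-variance trend and no replicate term. The threshold for a call was 0.05, after Benjamini-Hochberg adjustment over all genes tested. Ratios were compared by exact permutation over libraries (scipy 1.17.1). The limma fit was tested on simulated data for both NrasQ61K groups combined against WT, and the other steps were not.

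Loci came from GENCODE M21. Named were the members, MHC class II genes, Nras and Dct, up to 3 genes of each list with the smallest p and up to 2 with the highest mean, and the 5 most alike in pattern. The members and lists were chosen with earlier results of these data known. Alternatives covered the pseudocount, filters, scaling, weights, the replicate block and single libraries. A term for identifier runs in the labels was fitted only between the NrasQ61K groups, since WT shared no run with them. Against WT, group and identifier run therefore cannot be told apart.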

Additional observations from a re-analysis of the deposited data

How the results depend on the processing

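The members' directions against WT held under every alternative run for 9 of 10 genes. The exception was Lck (-0.15 for Tyr-NrasQ61K, -0.23 for libraries labelled MHCII-KO), which went to 0.12 with equal sums of FPKM and 0.00698 with median-ratio scaling for Tyr-NrasQ61K, to 0.0219 with median-ratio scaling and 0.0298 with quantile normalization for libraries labelled MHCII-KO, and to 0.0145 with median-ratio scaling for both groups combined. Median-ratio scaling moved the median of all genes against WT to 0.01 for Tyr-NrasQ61K and to -0.01 for libraries labelled MHCII-KO, beside -0.12 and -0.22 as deposited. Between libraries labelled MHCII-KO and Tyr-NrasQ61K no direction was stable: with equal sums of FPKM, Cd3d went to -0.247, Cd3e to -0.361, Cd8a to -0.148, Cd8b1 to -0.118 and Zap70 to -0.284. With median-ratio scaling Cd247 went to 0.0617 and Lck to 0.0150, and with quantile normalization Cd3g went to 0.0572, Cd247 to 0.117, Lck to 0.0971 and Cd28 to 0.0367. Library weights gave 0.111 for Cd247 and 0.446 for Lck, a term for identifier runs 0.0142 for Cd247 and 0.0830 for Lck, and leaving out both replicate 2 libraries 0.187 for Lck and, with its direction kept, 0.395 for Zap70.

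Whether the replicate numbers paired the libraries was not settled. Same-numbered libraries had correlations of deviations of -0.038 to 0.332, and 5 of 9 correlated best with their own number. With the replicate number as a block, 1 member passed for Tyr-NrasQ61K and 1 for libraries labelled MHCII-KO against WT, Cd247 in both, and 5 for both groups combined (Cd3d, Cd3g, Cd247, Cd4 and Cd28), beside 894, 777 and 2675 genes. The log2 difference in the Cd4 to Cd8a ratio stayed at 1.55 for both groups combined. An exact test that flipped the signs of the block differences gave p = 0.25. That is the smallest p so few blocks allow, so this test could not pass and decides nothing about the ratio. With library weights, 7 members passed for Tyr-NrasQ61K against WT, 6 for libraries labelled MHCII-KO against WT and 8 for both combined, beside 5076, 7407 and 7542 genes, and 24 genes passed between the NrasQ61K groups. Members passed under no other alternative.

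Genes called for Tyr-NrasQ61K against WT (39) were 24 with a pseudocount of 0.1, 23 with a filter on the mean, 23 with equal sums, 70 with median-ratio scaling and 105 among protein-coding genes only. For libraries labelled MHCII-KO against WT (24) they were 14 with the filter on the mean, 13 with equal sums, 108 among protein-coding genes and 38 when only the groups compared were fitted. For both combined (66) they were 43 with the filter on the mean, 31 with equal sums, 165 with median-ratio scaling, 173 with quantile normalization and 273 among protein-coding genes. Between the NrasQ61K groups (8) they were 0 among protein-coding genes and 2 without both replicate 2 libraries. The higher and lower calls for Tyr-NrasQ61K against WT were 27 and 12, and 36 and 69 among protein-coding genes. The cause of these shifts was not tested.

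Leaving out single libraries gave 9 to 36 calls for Tyr-NrasQ61K against WT, 5 to 32 for libraries labelled MHCII-KO against WT, 2 to 10 between the NrasQ61K groups and 21 to 59 for both combined. The log2 difference in the Cd4 to Cd8a ratio for both groups combined was 1.31 to 1.68 without single libraries, and 1.69 without both replicate 2 libraries. That of the Cd8a to Cd8b1 ratio, which was near 0 throughout, was -0.165 to 0.206 for Tyr-NrasQ61K, -0.0912 to 0.0452 for libraries labelled MHCII-KO, -0.218 to 0.152 between them and -0.0734 to 0.0748 for both combined. It was -0.165, 0.0737 and -0.128 without both replicate 2 libraries for Tyr-NrasQ61K against WT, between the NrasQ61K groups and for both combined, and -0.00482 with quantile normalization for both combined. Between libraries labelled MHCII-KO and Tyr-NrasQ61K, leaving out single libraries gave -0.366 to 0.308 for Cd247, -0.431 to 0.278 for Cd28, -0.0453 to 0.368 for Cd3d, -0.182 to 0.282 for Cd3e, -0.983 to 0.620 for Cd3g, -0.675 to 0.142 for Cd4, -0.295 to 0.0913 for Lck and -0.167 to 0.350 for Zap70, and for Tyr-NrasQ61K against WT -0.276 to 0.0641 for Lck.

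With 3 libraries a group and no read counts, single members could not be separated at this spread, and the absolute precision of low FPKM is unknown.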
